A study of Mus musculus with 26 samples.

Results

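The 32 genes described here are genes of myelin and of the mature oligodendrocyte, out of 24454 genes listed in the deposited counts. They were chosen by name, through the Entrez identifier of each gene, and all 32 had enough counts to be tested. Expression was read by RNA sequencing in 26 libraries of GFP-positive cells, sorted from early gliomas that were micro-dissected out of mouse brain. Every tumour, the controls included, was driven by PDGF and lacked the tumour suppressor Trp53. Control tumours kept Notch1, Notch2 and Rbpj (n = 6). The other tumours carried Notch1-/- (n = 6), Notch2-/- (n = 5), Notch1-/-Notch2-/- (n = 5) or Rbpj-/- (n = 4) besides the loss of Trp53. GFP came from a CAG reporter at the Rosa locus that Cre turns on. For the driver of Cre, the delivery of PDGF and the age of the mice, nothing is given in the sources used here. Since no label ties a replicate to an animal, a p-value describes the spread among libraries only, and part of that spread may be technical.

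Oligodendrocytes wrap axons in myelin, a stack of membrane rich in lipid and in a small set of proteins. They arise from precursor cells that carry the PDGF receptor Pdgfra and the proteoglycan Cspg4 and that divide in response to PDGF. A precursor that leaves division passes through a committed and then a premyelinating stage, in which Enpp6, Bcas1 and the transcription factor Myrf are switched on. Proteins of the finished sheath, such as Mog, Mal and Mobp, follow later. Notch receptors are cleaved when a ligand on a neighbouring cell binds them, and the part set free enters the nucleus and joins Rbpj on DNA. In normal development this signal is known for holding precursors back from maturation. The comparisons below ask how the levels of these genes differ between tumours with intact Notch signalling and tumours labelled as lacking a receptor or Rbpj.

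Total counts were 30868828 to 48103535 per library, and 15617 genes were tested. Levels are given as CPM, counts scaled to a common library total after TMM correction. The sorted cells had the markers of the precursor: Pdgfra was at 4511 ± 1130 CPM (SD, n = 6) and Cspg4 at 538 ± 132 CPM (SD, n = 6) in the control group. Of the genes named in the labels, Notch2 was lower in Notch2-/- than in control libraries, by -0.79 on the log2 scale (SE 0.15, edgeR adjusted p = 0.0200), and Rbpj was lower in Rbpj-/- libraries, by -0.70 (SE 0.20, edgeR adjusted p = 0.0222). Neither pair of groups overlapped. Notch1 was not lower in Notch1-/- libraries (0.40, edgeR adjusted p = 0.204). Which exons were deleted is not given in the sources used here, and counts over a whole gene then check nothing where a transcript persists. In libraries labelled Notch1-/-Notch2-/-, Notch2 (-0.18, edgeR adjusted p = 0.377) and Notch1 (0.36, edgeR adjusted p = 0.270) were not lower either, so the genotype of these libraries is known from the labels only. Control replicate 6 and Notch2-/- replicates 3 and 4 held both Xist, which female cells make, and the Y-linked Ddx3y. Control replicate 1 and Rbpj-/- replicate 2 held Xist (1624 and 3465 CPM) and no Ddx3y. So did replicates 1 and 2 of the libraries labelled Notch1-/-Notch2-/- (3428 and 3463 CPM). Both sexes are therefore present in these groups, whereas all Notch1-/- libraries held Ddx3y, with Xist at 2.04 CPM or less. Sex was not a term of the fit.

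In the control tumours, the 32 genes took up a median of 1.95% of all counts (n = 6). The median share was 1.19% in Notch2-/- (n = 5), 0.628% in Notch1-/- (n = 6), 0.801% in libraries labelled Notch1-/-Notch2-/- (n = 5) and 0.624% in Rbpj-/- (n = 4). Per kilobase of gene model, the most abundant members in the control group were Cnp (827 CPM per kilobase), Cldn11 (581), Sirt2 (515), Mal (490) and Enpp2 (473). The least abundant was Hapln2 at 2.57 CPM per kilobase. In bulk RNA, fewer cells of a type and less RNA per cell cannot be told apart, which holds for each result below.

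The 250 bases before the start of 4 members are shown, since the results turn on the fall of late sheath genes such as Mog, Mobp and Ermn beside an early gene, Enpp6, that did not pass the test. The sequences are those of RefSeq on GRCm38.p6, read 5′ to 3′ on the strand of the gene. Mog lies on the minus strand of chromosome 17 (chr17:37023399-37023648), Mobp on the plus strand of chromosome 9 (chr9:120149492-120149741), Ermn on the minus strand of chromosome 2 (chr2:58052865-58053114) and Enpp6 on the plus strand of chromosome 8 (chr8:46986637-46986886), where the start used is one inside the span of the gene. Capitals mark matches, on either strand, to 3 short motifs known for factors of this lineage or of the Notch pathway.
Mog: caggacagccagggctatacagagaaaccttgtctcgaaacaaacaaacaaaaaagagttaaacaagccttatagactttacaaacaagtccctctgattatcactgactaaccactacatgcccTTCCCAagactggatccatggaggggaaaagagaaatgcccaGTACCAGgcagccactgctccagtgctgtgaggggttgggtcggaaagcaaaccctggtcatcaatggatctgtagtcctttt
Mobp: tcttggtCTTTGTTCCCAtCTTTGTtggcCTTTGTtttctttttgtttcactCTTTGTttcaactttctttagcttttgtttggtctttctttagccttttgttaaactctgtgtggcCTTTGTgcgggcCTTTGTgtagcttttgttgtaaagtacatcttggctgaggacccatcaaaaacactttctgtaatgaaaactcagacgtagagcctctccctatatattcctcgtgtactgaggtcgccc
Ermn: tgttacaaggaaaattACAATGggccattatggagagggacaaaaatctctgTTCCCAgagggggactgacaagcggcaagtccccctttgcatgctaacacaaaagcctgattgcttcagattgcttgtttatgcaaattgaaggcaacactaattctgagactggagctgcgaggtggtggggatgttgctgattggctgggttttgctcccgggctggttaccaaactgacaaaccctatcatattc
Enpp6: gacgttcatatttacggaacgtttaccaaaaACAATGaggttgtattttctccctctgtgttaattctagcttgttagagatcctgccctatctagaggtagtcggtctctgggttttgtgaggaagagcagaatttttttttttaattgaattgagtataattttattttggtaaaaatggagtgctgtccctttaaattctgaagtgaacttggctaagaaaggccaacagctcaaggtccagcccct

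The motifs searched were CTGGCAC or CTGGTAC for Myrf, ACAAAG or ACAATG for Sox factors, and TGGGAA for Rbpj. In the sequence of Mobp, the first ACAAAG match and the TGGGAA match, both on the opposite strand, overlap. Mobp holds 6 ACAAAG matches, and Mog is the 1 member with CTGGTAC. Of the 32 members, 24 had promoter entries in the RefSeq table, with 34 windows in all because some genes have several starts. A Myrf motif was present in 5 windows (14.7%), of Cnp, Hapln2, Mag and Mog, against 5.93% of 32851 promoter windows of all genes. A Sox motif was present in 15 windows (44.1%, against 25.2%) and TGGGAA in 11 (32.4%, against 21.6%). Windows of nearby starts can hold the same site. The Myrf matches of Mag at -68 and -9 and its ACAAAG matches at -126 and -67 are shifted alike. By gene, a Myrf motif was present in 4 of 24 members, a Sox motif in 13 and TGGGAA in 10. These shares are a description of the letters in a short window and were not tested. Enpp2, Bcas1, Car2, Mbp, Trf, Cryab, Fa2h and Myrf had no entry.

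Most of the 32 genes fell in libraries labelled Notch1-/-Notch2-/-, in Rbpj-/- and in Notch1-/-, and edgeR called none in Notch2-/-. Log2 fold changes of the members that fell in libraries labelled Notch1-/-Notch2-/- ran from -4.77 for Mal to -1.09 for Nfasc. A member is said to have fallen or risen where its adjusted p in edgeR's quasi-likelihood test, over all genes, was under 0.05. In libraries labelled Notch1-/-Notch2-/-, 26 of the 32 members fell and 0 rose, where 18.8% of all genes tested fell and 18.3% rose. In Rbpj-/-, 19 fell and 0 rose, where 7.25% of all genes fell and 7.97% rose. In Notch1-/-, 18 fell and 0 rose, where 13.5% of all genes fell and 13.2% rose. In Notch2-/-, 0 fell and 0 rose, where 0.166% of all genes fell and 0.128% rose. All 4 comparisons share the 6 control libraries.

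The median log2 fold change over the members was -2.22 in libraries labelled Notch1-/-Notch2-/-, -1.74 in Rbpj-/-, -1.34 in Notch1-/- and -0.75 in Notch2-/-, beside medians of 0.01, 0.07, 0.03 and 0.01 over all genes tested. The estimate was below 0 for all 32 members in Rbpj-/- and for 31 in each of the others. The exception was Bcas1 in libraries labelled Notch1-/-Notch2-/- and in Notch1-/-, and Ugt8a in Notch2-/-. Every library labelled Notch1-/-Notch2-/- lay below every control library for 24 members, where this held for 11.1% of all genes tested. The same held for 17 members in Rbpj-/- (4.96% of all genes), for 3 in Notch1-/- (Mal, Gjb1 and Gsn, 3.5% of all genes) and for 0 in Notch2-/- (0.768% of all genes).

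The count in Notch2-/- depended on the tool. An unadjusted p was under 0.05 for 4 members in edgeR (Qdpr, Bcas1, Sirt2 and Cryab), DESeq2 called 0 (1.63% of all genes fell), and limma voom with quality weights called 11 (6.05% fell). Without Notch2-/- replicate 3, edgeR called 1, Qdpr (0.173% of all genes fell). In Notch1-/-, 1 library decided many calls: without Notch1-/- replicate 2, 30 members fell, where 15.6% of all genes fell. In Rbpj-/-, the count was 11 without control replicate 2 (4.63% of all genes fell), 9 without Rbpj-/- replicate 1 (4.51%), and 7 without either Rbpj-/- replicate 2 (3.33%) or Rbpj-/- replicate 4 (3.76%). Each library of the compared groups was left out in turn. Calls that held in all of these fits numbered 22 of 26 in libraries labelled Notch1-/-Notch2-/-, 12 of 18 in Notch1-/- and 7 of 19 in Rbpj-/-. The 7 in Rbpj-/- were Mog, Aspa, Opalin, Car2, Ppp1r14a, Plekhh1 and Qdpr. In libraries labelled Notch1-/-Notch2-/-, the calls that did not hold throughout were those of Mbp, Cnp, Enpp2 and Nfasc.

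**Figure D1:**
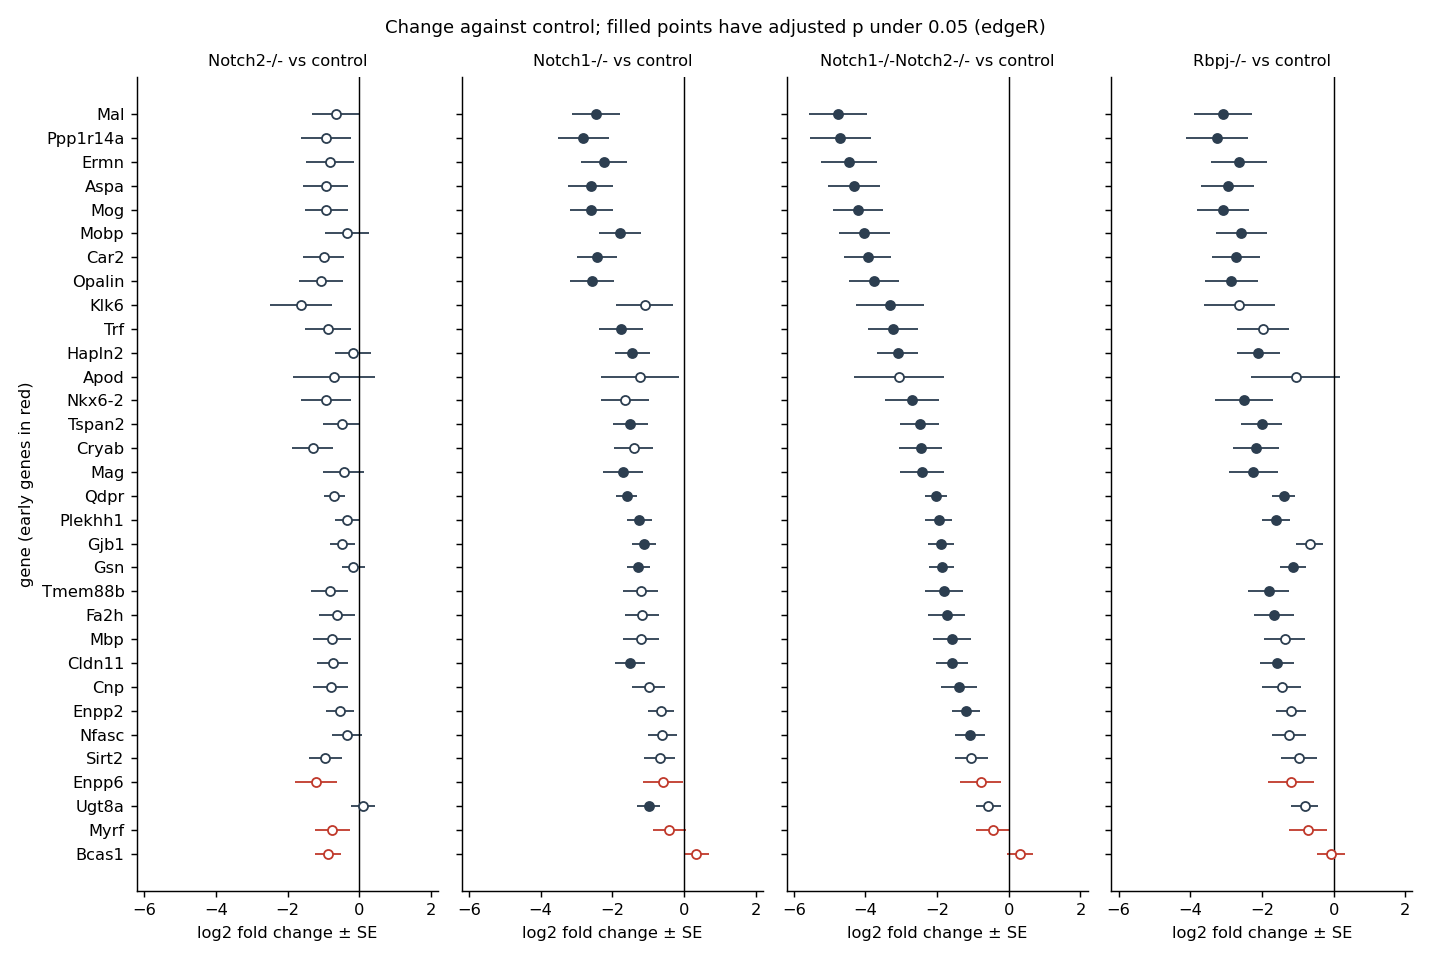
Log2 fold change against control of each of the 32 members, 1 panel per mutant genotype, with bars of 1 SE, early genes in red and filled points where the adjusted p was under 0.05. The panels hold 26, 19, 18 and 0 filled points for Notch1-/-Notch2-/-, Rbpj-/-, Notch1-/- and Notch2-/-.

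Of the 11 membrane and sheath proteins, all 11 fell in libraries labelled Notch1-/-Notch2-/- (median -2.49 on the log2 scale), 9 in Rbpj-/- (median -2.24), 8 in Notch1-/- (median -1.70) and 0 in Notch2-/- (median -0.76). Here and in each role below, the shares of all genes that fell were 18.8%, 7.25%, 13.5% and 0.166% in the same order. Mog, a glycoprotein of the outermost myelin layer, had the smallest adjusted p of this role in libraries labelled Notch1-/-Notch2-/-. In control libraries the lowest, median and highest levels of Mog were 202, 520.3 and 705 CPM. Notch1-/- libraries had a lowest, median and highest Mog level of 27.5, 57.0 and 236 CPM. The 5 Notch2-/- libraries, here and below in the order of their replicate numbers, had 147, 22.9, 600.0, 316 and 256 CPM. Replicates 1 and 2 of Notch2-/- were below the lowest control and the other 3 within the control range. Libraries labelled Notch1-/-Notch2-/- had Mog at 22.9, 17.9, 64.5, 13.2 and 18.1 CPM and Rbpj-/- libraries at 46.7, 40.9, 124 and 28.2 CPM. Each of these 9 libraries was below the lowest control, whereas Notch1-/- overlapped the controls through replicate 2 at 236 CPM. Mog was 18.5-fold lower in libraries labelled Notch1-/-Notch2-/-, a log2 fold change of -4.21 (SE 0.70, adjusted p = 1.37e-04) in edgeR. The log2 fold change of Mog was -3.08 (SE 0.73, adjusted p = 0.00938) in Rbpj-/-, -2.58 (SE 0.60, adjusted p = 0.00429) in Notch1-/- and -0.92 (SE 0.61, adjusted p = 0.471) in Notch2-/-.

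Mal, a proteolipid of compact myelin, had the largest log2 fold change of the 32 members in libraries labelled Notch1-/-Notch2-/-, at -4.77 (SE 0.80, adjusted p = 1.41e-04) in edgeR, or 27.2-fold lower. The lowest, median and highest levels of Mal were 712, 1506 and 1803 CPM in control libraries and 66.6, 175 and 623 CPM in Notch1-/-. Mal was at 405, 79.0, 1841, 1194 and 854 CPM in Notch2-/-, at 38.5, 26.4, 149, 15.8 and 20.0 CPM in libraries labelled Notch1-/-Notch2-/- and at 77.3, 121, 374 and 70.6 CPM in Rbpj-/-. Every library of the last 2 groups and of Notch1-/- was below the lowest control. Mal fell by 3.08 on the log2 scale in Rbpj-/- (edgeR adjusted p = 0.0151) and by 2.46 in Notch1-/- (edgeR adjusted p = 0.0102). Ermn, a protein of the outer cytoplasmic tongue of the sheath, fell by 4.47 in libraries labelled Notch1-/-Notch2-/-, and Mobp, a protein of the major dense line, by 4.04. Opalin, a glycoprotein found at the inner loops, fell by 3.76, Tspan2 by 2.49 and Mag, the glycoprotein that faces the axon, by 2.42. The tight junction protein Cldn11 and the major dense line protein Mbp each fell by 1.58. Tmem88b, a membrane protein of oligodendrocytes, fell by 1.80 in libraries labelled Notch1-/-Notch2-/- and by 1.82 in Rbpj-/-, and its estimate in Notch1-/- was -1.20 (edgeR adjusted p = 0.0687). Mbp was the only late sheath gene that did not pass in Rbpj-/- (-1.37, edgeR adjusted p = 0.105) or in Notch1-/- (-1.20, edgeR adjusted p = 0.0753).

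Cnp, a phosphodiesterase that keeps channels of cytoplasm open in the sheath, was the most abundant of the membrane and sheath genes per length. Control libraries had a lowest, median and highest Cnp level of 950.3, 2138 and 3483 CPM, and Notch1-/- libraries one of 447, 677 and 3642 CPM. In Notch2-/-, Cnp was at 942, 342, 2656, 1357 and 1077 CPM. Cnp was at 1094, 586, 1049, 576 and 932 CPM in libraries labelled Notch1-/-Notch2-/- and at 1067, 629, 891 and 648 CPM in Rbpj-/-. All 4 mutant groups overlapped the controls, in which replicate 4 was lowest. Cnp fell by 1.39 on the log2 scale in libraries labelled Notch1-/-Notch2-/- (SE 0.50, edgeR adjusted p = 0.0314). With each library of the compared groups left out in turn, this call held in 7 of 11 fits. The highest adjusted p was 0.0759, without replicate 4 of that group. In Rbpj-/- the estimate was -1.45 (SE 0.54, adjusted p = 0.0667), in Notch1-/- -0.98 (SE 0.46, adjusted p = 0.111) and in Notch2-/- -0.80 (SE 0.49, adjusted p = 0.432).

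**Figure D2:**
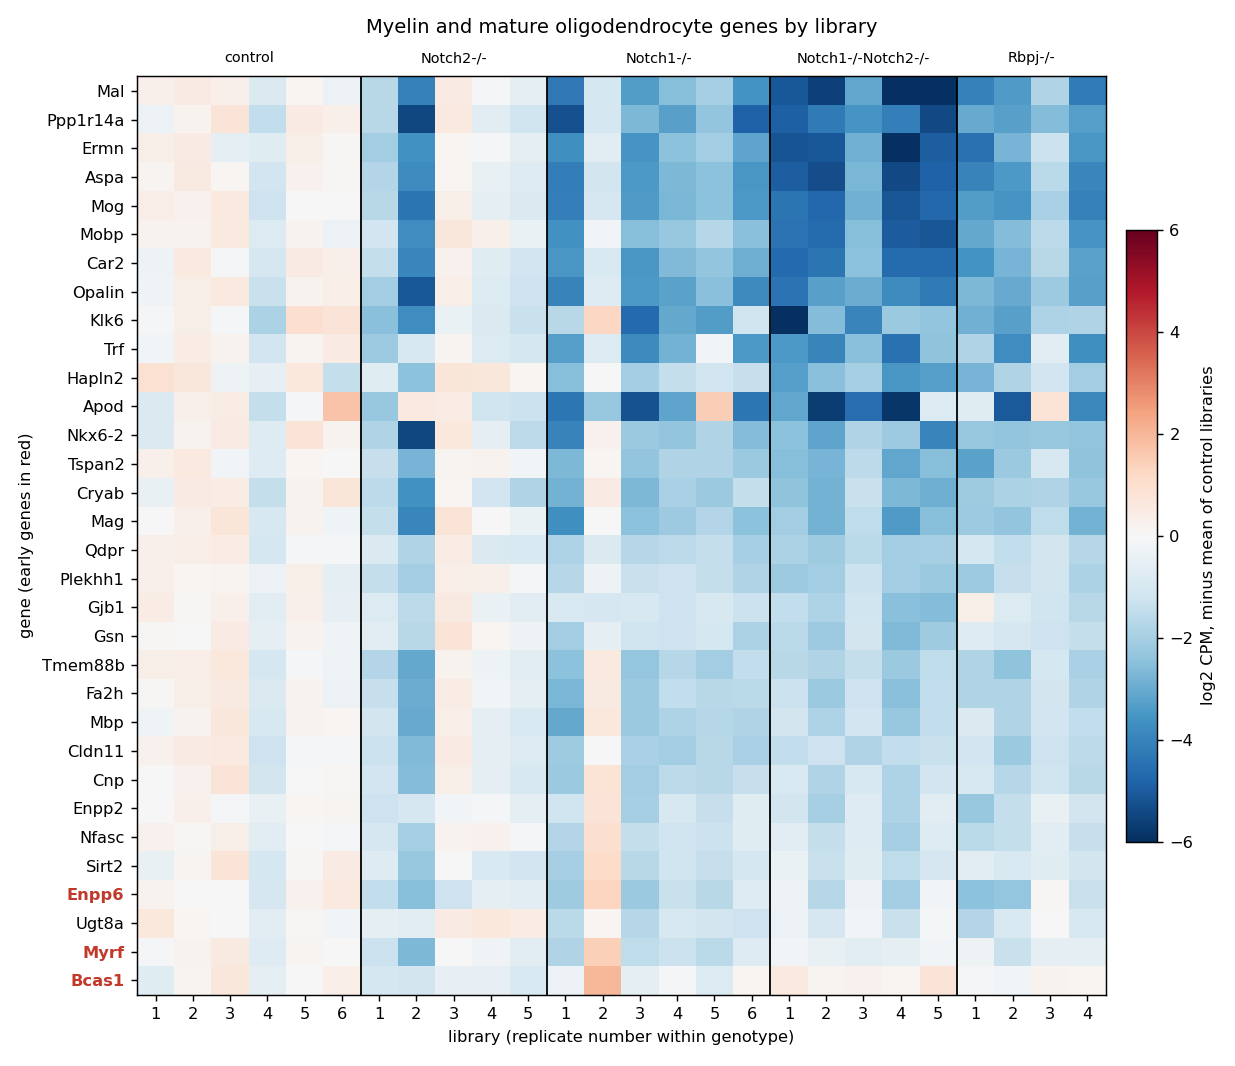
Log2 CPM (prior count of 2) of the 32 members in each of the 26 libraries, minus the mean of the 6 control libraries, with genes ordered by their change in Notch1-/-Notch2-/- and the 3 early genes in red. Notch1-/- replicate 2 differs from the other 5 Notch1-/- libraries over most genes, and Notch2-/- replicates 1 and 2 are low over most genes.

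Of the 8 enzymes of lipid synthesis and metabolism, 5 fell in libraries labelled Notch1-/-Notch2-/- (median -1.47), 4 in Rbpj-/- (median -1.29), 4 in Notch1-/- (median -1.08) and 0 in Notch2-/- (median -0.82). Qdpr, which regenerates the cofactor of aromatic amino acid hydroxylases, had the smallest adjusted p of the role. Its lowest, median and highest levels were 107, 249 and 311 CPM in control libraries and 55.9, 73.0 and 122 CPM in Notch1-/-. The Notch2-/- levels of Qdpr were 122, 64.8, 303, 123 and 119 CPM. Libraries labelled Notch1-/-Notch2-/- had Qdpr at 60.3, 51.5, 72.8, 52.9 and 55.8 CPM, all below the lowest control. In Rbpj-/- libraries Qdpr was at 107, 81.7, 103 and 69.5 CPM. Qdpr was 4.06-fold lower in libraries labelled Notch1-/-Notch2-/-, a log2 fold change of -2.02 (SE 0.31, adjusted p = 6.19e-05) in edgeR. It was -1.40 (SE 0.32, adjusted p = 0.00848) in Rbpj-/-, -1.60 (SE 0.28, adjusted p = 5.98e-04) in Notch1-/- and -0.70 (SE 0.29, adjusted p = 0.287) in Notch2-/-.

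Aspa, which frees acetate from N-acetylaspartate for lipid synthesis, fell by 4.33 on the log2 scale in libraries labelled Notch1-/-Notch2-/- (edgeR adjusted p = 1.46e-04), and the carbonic anhydrase Car2 by 3.93 (edgeR adjusted p = 1.33e-04). Both also fell in Rbpj-/- and in Notch1-/-. Fa2h, which hydroxylates the fatty acids of galactolipids, fell by 1.74 in libraries labelled Notch1-/-Notch2-/- and by 1.67 in Rbpj-/-, and its estimate in Notch1-/- was -1.17 (edgeR adjusted p = 0.0683). Ugt8a, which joins galactose to ceramide to make the main galactolipid of myelin, fell in Notch1-/- (-0.99, edgeR adjusted p = 0.0303) and did not pass in libraries labelled Notch1-/-Notch2-/- (-0.57, edgeR adjusted p = 0.193) or in Rbpj-/- (-0.80, edgeR adjusted p = 0.141). Enpp2, the secreted lysophospholipase autotaxin and the most abundant of these enzymes in CPM, fell in libraries labelled Notch1-/-Notch2-/- (-1.20, edgeR adjusted p = 0.0200).

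Sirt2, a deacetylase found in the myelin sheath, was the most abundant enzyme of this role per length and passed in none of the 4 comparisons with control. Control libraries had Sirt2 at a lowest, median and highest level of 432, 969 and 1498 CPM, and Notch1-/- libraries at 221, 365 and 1924 CPM. It was at 516, 185, 905, 474 and 402 CPM in Notch2-/-, at 669, 354, 544, 307 and 439 CPM in libraries labelled Notch1-/-Notch2-/- and at 546, 465, 544 and 415 CPM in Rbpj-/-. Every mutant group overlapped the controls. Sirt2 had a log2 fold change of -1.05 (SE 0.46, adjusted p = 0.0743) in libraries labelled Notch1-/-Notch2-/-, -0.96 (SE 0.50, adjusted p = 0.186) in Rbpj-/-, -0.68 (SE 0.43, adjusted p = 0.234) in Notch1-/- and -0.95 (SE 0.46, adjusted p = 0.336) in Notch2-/- in edgeR.

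All 3 junction and node genes fell in libraries labelled Notch1-/-Notch2-/-, 1 fell in Rbpj-/- (Hapln2), 2 in Notch1-/- (Hapln2 and Gjb1) and 0 in Notch2-/-. Hapln2 is a link protein of the matrix at nodes of Ranvier and the least abundant member per length. Its lowest, median and highest levels were 1.67, 5.41 and 8.61 CPM in control libraries and 0.745, 1.67 and 4.46 CPM in Notch1-/-. Hapln2 in Notch2-/- was at 2.77, 0.785, 7.67, 7.23 and 4.99 CPM. Libraries labelled Notch1-/-Notch2-/- had 0.409, 0.768, 1.12, 0.355 and 0.410 CPM, each below the controls, and Rbpj-/- libraries had 0.609, 1.28, 2.01 and 1.02 CPM, which overlapped them. The log2 fold change of Hapln2 was -3.10 (SE 0.57, adjusted p = 3.34e-04) in libraries labelled Notch1-/-Notch2-/-, -2.10 (SE 0.59, adjusted p = 0.0215) in Rbpj-/-, -1.44 (SE 0.50, adjusted p = 0.0349) in Notch1-/- and -0.17 (SE 0.51, adjusted p = 0.888) in Notch2-/- in edgeR. Gjb1, a connexin that joins the layers of the sheath, fell by 1.90 in libraries labelled Notch1-/-Notch2-/- (edgeR adjusted p = 4.28e-04) and by 1.12 in Notch1-/- (edgeR adjusted p = 0.0167), where the groups did not overlap. In Rbpj-/- the estimate of Gjb1 was -0.67 (edgeR adjusted p = 0.222).

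Nfasc, whose glial form anchors the sheath beside the node and whose neuronal form sits in axons, was the most abundant gene of this role. Nfasc had a lowest, median and highest level of 858, 1385 and 1699 CPM in control libraries and of 391, 557 and 2554 CPM in Notch1-/-. In Notch2-/-, Nfasc was at 659, 332, 1531, 1573 and 1267 CPM. Nfasc was at 853, 491, 768, 337 and 761 CPM in libraries labelled Notch1-/-Notch2-/- and at 430.4, 491, 855 and 518 CPM in Rbpj-/-. Both of these groups lay below the lowest control. The log2 fold change of Nfasc was -1.09 (SE 0.43, edgeR adjusted p = 0.0483) in libraries labelled Notch1-/-Notch2-/-. With each library of the compared groups left out in turn, this call held in 2 of 11 fits. The highest adjusted p was 0.122, without replicate 4 of that group. The log2 fold change of Nfasc was -1.25 (SE 0.46, adjusted p = 0.0677) in Rbpj-/-, -0.61 (SE 0.40, adjusted p = 0.253) in Notch1-/- and -0.35 (SE 0.42, adjusted p = 0.697) in Notch2-/-. A gene count does not separate the forms of Nfasc.

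Of the 4 secreted carriers, proteases and chaperones, 3 fell in libraries labelled Notch1-/-Notch2-/- (Trf, Klk6 and Cryab), 1 in Rbpj-/- (Cryab), 1 in Notch1-/- (Trf) and 0 in Notch2-/-. Trf, the iron carrier transferrin, was at a lowest, median and highest level of 301, 744 and 918 CPM in control libraries and of 46.9, 79.9 and 596 CPM in Notch1-/-. Levels in Notch2-/- were 144, 336, 731, 368 and 321 CPM. Trf was at 61.1, 42.8, 115, 29.8 and 123 CPM in libraries labelled Notch1-/-Notch2-/- and at 190.3, 49.3, 417 and 52.0 CPM in Rbpj-/-. The libraries labelled Notch1-/-Notch2-/- were all below the controls, whereas the other mutant groups overlapped them. Trf was 9.40-fold lower in libraries labelled Notch1-/-Notch2-/-, a log2 fold change of -3.23 (SE 0.70, adjusted p = 0.00131) in edgeR. Its log2 fold change was -1.98 (SE 0.72, adjusted p = 0.0636) in Rbpj-/-, -1.76 (SE 0.62, adjusted p = 0.0377) in Notch1-/- and -0.88 (SE 0.64, adjusted p = 0.506) in Notch2-/-. Klk6, a serine protease of oligodendrocytes, fell by 3.32 in libraries labelled Notch1-/-Notch2-/- (SE 0.95, edgeR adjusted p = 0.00902), and replicate 1 of that group had 0 counts. The small heat shock protein Cryab fell by 2.46 in libraries labelled Notch1-/-Notch2-/- (edgeR adjusted p = 0.00308) and by 2.17 in Rbpj-/- (edgeR adjusted p = 0.0277).

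Apod, the lipid carrier apolipoprotein D, passed in none of the 4 comparisons with control. Control libraries had Apod at a lowest, median and highest level of 204, 597 and 1788 CPM and Notch1-/- libraries at 14.5, 44.8 and 1554 CPM. Notch2-/- libraries had 115, 837, 751, 239 and 224 CPM. Apod was at 64.3, 10.5, 23.0, 9.61 and 315 CPM in libraries labelled Notch1-/-Notch2-/- and at 332, 16.6, 974 and 38.2 CPM in Rbpj-/-. The highest library of a group reached between 315 and 1788 CPM, and all groups overlapped. The log2 fold change was -3.06 (SE 1.25, adjusted p = 0.0563) in libraries labelled Notch1-/-Notch2-/-, -1.05 (SE 1.24, adjusted p = 0.586) in Rbpj-/-, -1.24 (SE 1.09, adjusted p = 0.399) in Notch1-/- and -0.70 (SE 1.14, adjusted p = 0.781) in Notch2-/- in edgeR. Fibroblasts and other cells of vessels and meninges also make Apod, and the summed level of the 14 mural and fibroblast markers was high in the same libraries. Cells were sorted for GFP from the Cre reporter, and which cells Cre marked is not given in the sources used here. Control replicate 6 had 1788 CPM of Apod and 1040 CPM of these markers, Notch1-/- replicate 5 had 1554 and 1499, and Notch2-/- replicate 2 had 837 and 1163. Rbpj-/- replicate 3 had 974 and 1062, and replicate 5 of the libraries labelled Notch1-/-Notch2-/- had 315 and 396. In the other 5 Notch1-/- libraries the markers summed to 18.7 to 62.7 CPM. Their part in the result was not tested.

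Among the 4 genes of the cytoskeleton and of signalling, Ppp1r14a, Plekhh1 and Gsn fell in libraries labelled Notch1-/-Notch2-/-, in Rbpj-/- and in Notch1-/-. The fourth, the early gene Bcas1, did not pass in any comparison with control. Ppp1r14a, an inhibitor of myosin phosphatase, had a lowest, median and highest level of 1.92, 6.59 and 9.21 CPM in control libraries and of 0.0931, 0.660 and 2.60 CPM in Notch1-/-. Notch2-/- libraries had 1.66, 0.0760, 8.23, 3.50 and 2.36 CPM. Libraries labelled Notch1-/-Notch2-/- had 0.136, 0.238, 0.420, 0.273 and 0.0769 CPM and Rbpj-/- libraries 0.632, 0.526, 0.849 and 0.511 CPM, all below the lowest control. Ppp1r14a had a log2 fold change of -4.70 (SE 0.85, adjusted p = 2.74e-04) in libraries labelled Notch1-/-Notch2-/-, -3.26 (SE 0.85, adjusted p = 0.0155) in Rbpj-/-, -2.80 (SE 0.71, adjusted p = 0.00682) in Notch1-/- and -0.93 (SE 0.70, adjusted p = 0.519) in Notch2-/- in edgeR. Plekhh1, a protein with pleckstrin homology domains, fell by 1.96, 1.61 and 1.24 in libraries labelled Notch1-/-Notch2-/-, Rbpj-/- and Notch1-/- (edgeR adjusted p = 3.76e-04, 0.0109 and 0.0104). Gsn, which severs actin filaments, fell by 1.87 in libraries labelled Notch1-/-Notch2-/- (edgeR adjusted p = 3.44e-04) and by 1.27 in Notch1-/- (edgeR adjusted p = 0.00665), and neither group overlapped the controls.

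Nkx6-2, a homeodomain factor of maturing oligodendrocytes, fell in libraries labelled Notch1-/-Notch2-/- and in Rbpj-/-, while Myrf passed in none of the 4 comparisons. Nkx6-2 was at a lowest, median and highest level of 3.02, 6.39 and 9.53 CPM in control libraries and of 0.303, 1.08 and 6.62 CPM in Notch1-/-. Notch2-/- libraries had 1.53, 0.0760, 8.54, 3.84 and 1.86 CPM. Libraries labelled Notch1-/-Notch2-/- had 0.978, 0.583, 1.54, 1.20 and 0.308 CPM and Rbpj-/- libraries 1.12, 1.02, 1.11 and 1.04 CPM. Both groups were below the lowest control. Nkx6-2 had a log2 fold change of -2.71 (SE 0.75, adjusted p = 0.00716) in libraries labelled Notch1-/-Notch2-/-, -2.49 (SE 0.81, adjusted p = 0.0399) in Rbpj-/-, -1.65 (SE 0.67, adjusted p = 0.0665) in Notch1-/- and -0.93 (SE 0.69, adjusted p = 0.515) in Notch2-/- in edgeR.

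The early genes were called less widely than the late ones, a contrast of counts that was not itself tested. Of the 3 early genes Enpp6, Bcas1 and Myrf, 0 passed in edgeR in any of the 4 comparisons with control, and the unadjusted p was under 0.05 only for Bcas1 in Notch2-/-. Of all genes tested, 18.8% fell in libraries labelled Notch1-/-Notch2-/-, 13.5% in Notch1-/-, 7.25% in Rbpj-/- and 0.166% in Notch2-/-. At such shares, 0 of 3 genes does not set the early genes apart from all genes. Of the 14 late genes, 13 fell in libraries labelled Notch1-/-Notch2-/- (median -3.28), 11 in Notch1-/- (median -1.73), 9 in Rbpj-/- (median -2.41) and 0 in Notch2-/- (median -0.75). Other settings called some early genes lower. DESeq2 called 0 of them in the 4 comparisons with control. Voom called Enpp6 in Rbpj-/- (12.1% of all genes fell), Enpp6 and Myrf in Notch1-/- (22% fell), and Bcas1 in Notch2-/-. In edgeR, Enpp6 (-1.58, adjusted p = 0.0126) and Myrf (-1.39, adjusted p = 0.00302) fell in Notch1-/- without Notch1-/- replicate 2. Enpp6 also passed in Rbpj-/- without Rbpj-/- replicate 3, and Bcas1 in Notch2-/- without Notch1-/- replicate 2. No setting called an early gene in libraries labelled Notch1-/-Notch2-/-.

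Enpp6, a choline phosphodiesterase that marks newly formed oligodendrocytes, had a lowest, median and highest level of 112, 239 and 334 CPM in control libraries and of 47.2, 79.0 and 549.9 CPM in Notch1-/-. Enpp6 was at 79.5, 38.5, 94.2, 151 and 144 CPM in Notch2-/-. It was at 182, 67.8, 173, 54.9 and 201 CPM in libraries labelled Notch1-/-Notch2-/- and at 40.8, 44.0, 237 and 89.8 CPM in Rbpj-/-. All groups overlapped the controls, and Notch1-/- replicate 2 exceeded every control. Enpp6 had a log2 fold change of -0.79 (SE 0.58, adjusted p = 0.293) in libraries labelled Notch1-/-Notch2-/-, -1.19 (SE 0.64, adjusted p = 0.204) in Rbpj-/-, -0.59 (SE 0.55, adjusted p = 0.429) in Notch1-/- and -1.21 (SE 0.59, adjusted p = 0.338) in Notch2-/- in edgeR.

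Myrf, the membrane-bound factor that switches on many myelin genes, also overlapped the controls in every group. Its lowest, median and highest levels were 115, 210.3 and 290.2 CPM in control libraries and 57.5, 74.6 and 539 CPM in Notch1-/-. For Notch2-/-, Myrf was at 80.5, 31.1, 204, 169 and 129.5 CPM. The levels of Myrf were 175, 146, 123, 137 and 177 CPM in libraries labelled Notch1-/-Notch2-/- and 158, 77.4, 131 and 134 CPM in Rbpj-/-. Myrf had a log2 fold change of -0.44 (SE 0.49, adjusted p = 0.495) in libraries labelled Notch1-/-Notch2-/-, -0.72 (SE 0.53, adjusted p = 0.362) in Rbpj-/-, -0.42 (SE 0.46, adjusted p = 0.511) in Notch1-/- and -0.75 (SE 0.49, adjusted p = 0.465) in Notch2-/- in edgeR.

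Bcas1, a protein of myelin-forming cells at the premyelinating stage, was the most abundant early gene. Control libraries had Bcas1 at a lowest, median and highest level of 602, 1049 and 1602 CPM and Notch1-/- libraries at 563, 842 and 3954 CPM. Bcas1 was at 476, 463, 693, 703 and 527 CPM in Notch2-/-. It was at 1496, 1115, 1175, 1058 and 1681 CPM in libraries labelled Notch1-/-Notch2-/-, within or above the control range, and at 931, 876, 1125 and 1068 CPM in Rbpj-/-. Bcas1 had a log2 fold change of 0.32 (SE 0.37, adjusted p = 0.513) in libraries labelled Notch1-/-Notch2-/-, -0.06 (SE 0.39, adjusted p = 0.930) in Rbpj-/-, 0.34 (SE 0.35, adjusted p = 0.481) in Notch1-/- and -0.87 (SE 0.37, adjusted p = 0.299) in Notch2-/- in edgeR. The sign of its small estimate in Rbpj-/- and in Notch1-/- flipped under voom, to 0.0767 and -0.16, and with single libraries left out it reached 0.10 and -0.38.

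**Figure D3:**
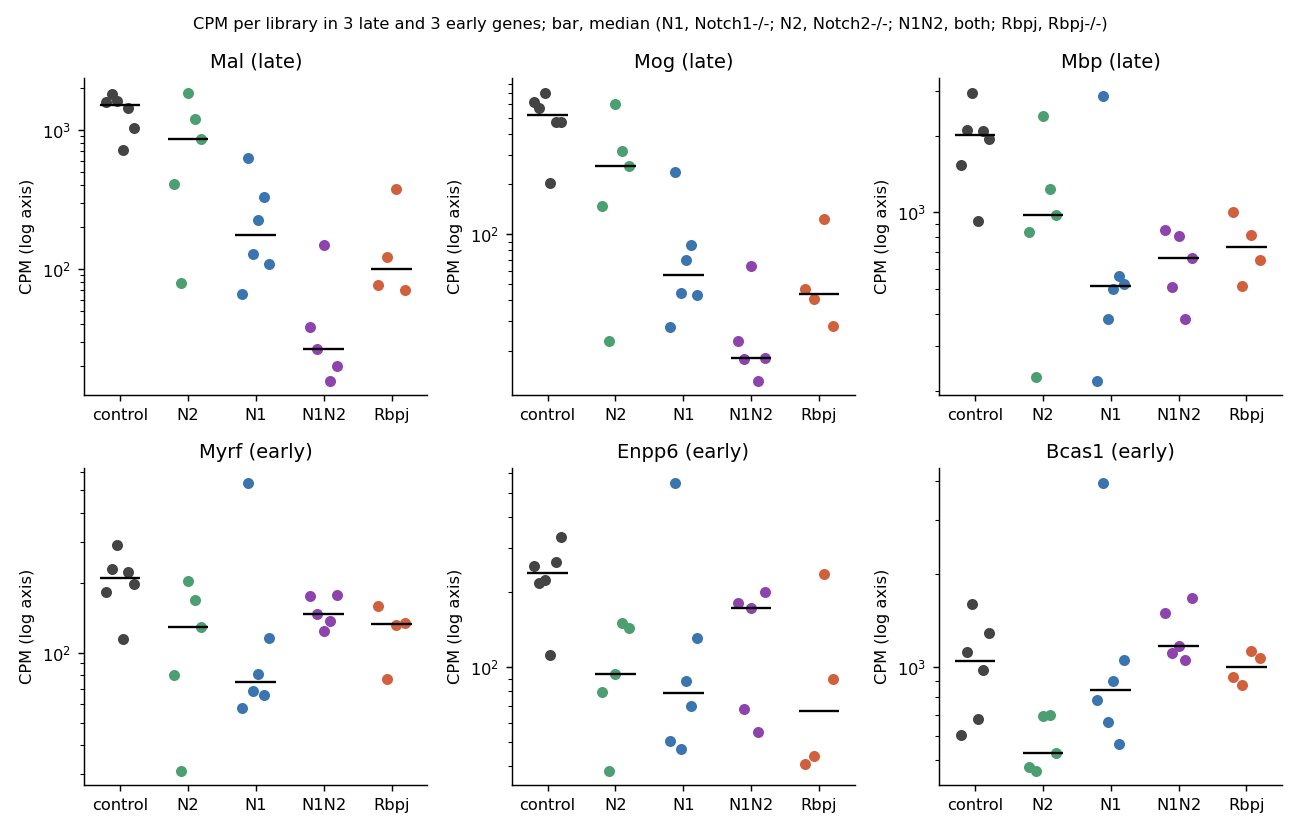
CPM (log axis) of Mal, Mog, Mbp, Myrf, Enpp6 and Bcas1 in each library by genotype, with a bar at each median. Mal and Mog separate the libraries labelled Notch1-/-Notch2-/- from the controls, whereas Enpp6, Bcas1 and Myrf overlap the controls in all 4 mutant groups.

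The summed level of the 14 late genes was 3.89 to 7.10 times that of the 3 early genes in the control libraries (median 5.12). The ratio was 0.865, 0.878, 1.23, 0.723 and 0.814 in libraries labelled Notch1-/-Notch2-/- and 2.09, 1.22, 2.43 and 1.05 in Rbpj-/-, with no overlap with the controls in either group. In Notch2-/- it was 3.32 to 10.0, across the control range, and without Apod it was 1.75 in Notch2-/- replicate 2, below the lowest control. In Notch1-/- it was 0.849 to 1.42 in 5 libraries and 5.51 in replicate 5. Apod made up much of the late sum in that library, and without Apod its ratio was 3.28, also below the lowest control without Apod at 3.64. The mean log2 ratio differed from control by -2.55 in libraries labelled Notch1-/-Notch2-/- (SD 0.286, n = 5), -1.79 in Notch1-/- (SD 0.966, n = 6), -1.71 in Rbpj-/- (SD 0.588, n = 4) and 0.00 in Notch2-/- (SD 0.602, n = 5), beside an SD of 0.300 among the controls (n = 6). Without Apod these differences were -2.50, -1.82, -1.75 and -0.11. The choice to leave out Apod was made after seeing the data, and no test was run on sums over members.

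The parts of the ratio were as follows. The early sum was 907 to 2116 CPM in control libraries, 1250 to 2059 in libraries labelled Notch1-/-Notch2-/-, 998 to 1493 in Rbpj-/- and 532 to 1022 in Notch2-/-. In Notch1-/- the early sum was 698 to 1303 CPM in 5 libraries and 5044 in replicate 2. The late sum was 3529 to 10320 CPM in control libraries, 904 to 1809 in libraries labelled Notch1-/-Notch2-/-, 1213 to 3623 in Rbpj-/-, 758 to 6447 in Notch1-/- and 1766 to 9957 in Notch2-/-. Early sums of libraries labelled Notch1-/-Notch2-/- and of Rbpj-/- were all within the control range, whereas late sums of libraries labelled Notch1-/-Notch2-/- were all below it. Bcas1 makes up most of the early sum, with a mean of 1045 CPM of 1486 in control libraries. The mean log2 CPM of the early genes, which weights them equally, was 7.69 to 8.88 in control libraries. It was 7.51, 7.17, 8.35 and 7.87 in Rbpj-/- and 7.64 to 8.61 in libraries labelled Notch1-/-Notch2-/-, so that 2 Rbpj-/- libraries and 1 library labelled Notch1-/-Notch2-/- were below the controls. In Notch1-/- it was 7.01 to 10.04, and the median of 7.32 was below the lowest control. In Notch2-/- it was 6.36 to 8.03, with a median of 7.74. Enpp6 was below every control in 3 of the 4 Rbpj-/- libraries.

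**Figure D4:**
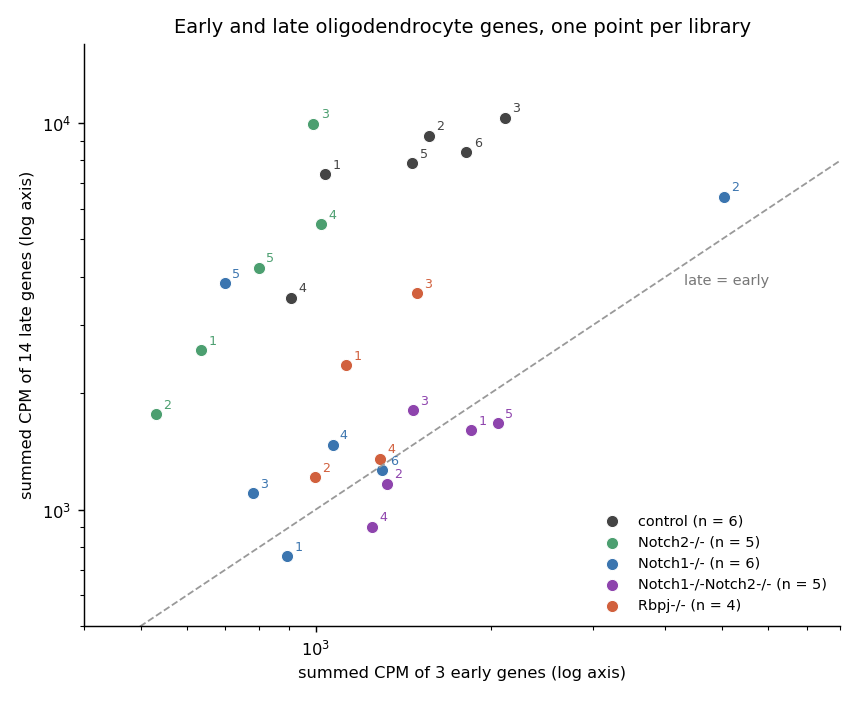
Summed CPM of the 14 late genes against summed CPM of the 3 early genes, both on log axes, 1 point per library and 1 colour per genotype. The libraries labelled Notch1-/-Notch2-/- share the early range of the controls (1250 to 2059 against 907 to 2116 CPM) and lie below them on the late axis (904 to 1809 against 3529 to 10320 CPM).

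Libraries of 1 genotype differed widely in these genes. Notch1-/- replicate 2 was the highest of its group for 29 of the 32 members, and 8 members, the 3 early genes among them, exceeded every control there. In the other 5 Notch1-/- libraries, 27 to 31 members were below every control. Without replicate 2, the estimates of Enpp6 and Myrf given above had an SE of 0.46 and 0.32. Bcas1 (-0.38, edgeR adjusted p = 0.175) and Apod (-1.06, edgeR adjusted p = 0.497) were the members that did not pass. In that library, the 16 genes of committed precursors and newly formed oligodendrocytes summed to 18280 CPM, above the control maximum of 8307 CPM.

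The Notch2-/- libraries differed too. In Notch2-/- replicates 1 and 2, 28 and 30 members were below every control, against 1, 0 and 7 in replicates 3, 4 and 5. Replicate 2 was the lowest of its group for 29 members and replicate 3 the highest for 25. Replicates 3 and 4 are 2 of the 3 libraries that held both Xist and Ddx3y. In libraries labelled Notch1-/-Notch2-/-, 25 to 30 members were below every control in each library, and in Rbpj-/- 21 to 30. Among the controls, replicate 4 was the lowest for 28 members, and its microglia and macrophage markers summed to 463 CPM, against 1158 to 1717 CPM in the other controls.

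Within genotypes the members varied together. Taking each library's deviation from its genotype's mean log2 CPM, the correlation between a pair of members over the 26 libraries had a median of 0.749 and ranged from -0.0146 to 0.977 over 496 pairs. Fa2h, Mag and Mog followed the mean of the other members most closely, with correlations of 0.967, 0.965 and 0.960. Apod, Gjb1 and Klk6 followed it least, at 0.262, 0.475 and 0.553. These values describe libraries that share depth scaling and cell composition, and no p is given for them.

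Between mutant genotypes, edgeR called 0 members in each of the 3 comparisons made. For Notch1-/- against Notch2-/-, 3.09% of all genes passed in either direction, the unadjusted p was under 0.05 for 15 members, DESeq2 called 4 and voom 16. In DESeq2, Ugt8a, Gsn and Qdpr were lower and Bcas1 was higher in Notch1-/- than in Notch2-/-, where 4.02% of all genes fell and 3.02% rose. In voom, 7.7% of all genes fell. The edgeR count was 12 without Notch1-/- replicate 2, where 4.13% of all genes passed. It was 3 without Notch2-/- replicate 2 (Plekhh1, Gsn and Qdpr, with 3.2% passing) and 1 without Notch1-/- replicate 5 (Bcas1, with 5.39% passing). For libraries labelled Notch1-/-Notch2-/- against Notch1-/-, 0.64% of all genes passed, the unadjusted p was under 0.05 for 11 members, DESeq2 called 2 lower (Mobp and Ermn, with 1.78% of all genes passing) and voom 0 (2.3% passing), and edgeR called 3 (Mal, Mobp and Ermn, with 1.28% passing) without replicate 3 of the libraries labelled Notch1-/-Notch2-/-. For Rbpj-/- against libraries labelled Notch1-/-Notch2-/-, 0.794% passed, the unadjusted p was under 0.05 for 4 members (Mal, Mobp, Ermn and Gjb1), and DESeq2 (2.03% of all genes) and voom (0.948%) called 0.

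For the interaction, which asks whether the loss of both receptors differs from the sum of the single losses, edgeR called 0 members, where 0.0768% of all genes passed. The unadjusted p was under 0.05 for 1 member, Mobp, DESeq2 called 0 (0.794% of all genes passed) and voom 4 (Cldn11, Myrf, Bcas1 and Sirt2, with 5.92% passing). Bcas1 passed in edgeR without Notch1-/- replicate 2 (1.46% of all genes passing). Libraries labelled Notch1-/-Notch2-/- were not tested against Notch2-/-.

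Other genes of the pathway, from lists chosen with earlier results of these data known, were counted in the same fit. Of all genes tested, 18.8% fell and 18.3% rose in libraries labelled Notch1-/-Notch2-/-, and 7.25% and 7.97% in Rbpj-/-. The shares were 13.5% and 13.2% in Notch1-/-, and 0.166% and 0.128% in Notch2-/-. Of 35 other myelin and maturation genes, 27 fell in libraries labelled Notch1-/-Notch2-/-, 22 in Rbpj-/-, 20 in Notch1-/- and 0 in Notch2-/-, and 0 rose. In libraries labelled Notch1-/-Notch2-/-, Evi2a had a log2 fold change of -4.20, Efhd1 one of -4.20 and Ndrg1, which is mutated in a demyelinating neuropathy, one of -3.82. Of the 16 genes of committed precursors and newly formed oligodendrocytes, 2 fell (Rras2 by 1.85 and Dusp7 by 0.67) and 1 rose in libraries labelled Notch1-/-Notch2-/-, namely Tcf7l2 (0.90), a factor of the premyelinating stage. In Rbpj-/- and in Notch1-/- 1 of them fell, Rras2, and in Notch2-/- 0 passed. Of 20 lineage regulators, 4 fell (Hes5, Id4, Olig1 and Zfp488) and 5 rose (Sox6, Tcf7l2, Chd7, Smarca4 and Yy1) in libraries labelled Notch1-/-Notch2-/-. The 20% that fell was near the 18.8% of all genes, so that count does not set these regulators apart. Hes5, a repressor that Notch switches on, fell by 2.69, Id4, an inhibitor of basic helix-loop-helix factors, by 2.61, and Sox6, a factor of precursors, rose by 0.82. In Rbpj-/- and in Notch1-/- 2 of the regulators fell (Hes5 and Id4) and 2 rose (Smarca4 and Sox6) in each, and 0 passed in Notch2-/-. Where a count here is 5 or fewer, genes beyond the naming rule were named after their values were seen.

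Of the 18 precursor markers, 3 fell (Tmem100 by 2.29, Serpine2 by 1.13 and Olig1 by 0.61) and Sox6 rose in libraries labelled Notch1-/-Notch2-/-. The share that fell there, 16.7%, was near the 18.8% of all genes, and in Notch1-/- 11.1% stood beside 13.5%. In Rbpj-/- Sox6 rose and 0 fell, in Notch1-/- 2 fell (Susd5 and Tmem100) and Sox6 rose, and in Notch2-/- 0 passed. Their summed level was 15470 to 21456 CPM in control libraries, 9655 to 20204 in libraries labelled Notch1-/-Notch2-/-, 13561 to 22024 in Rbpj-/-, 15951 to 22344 in Notch1-/- and 17809 to 24696 in Notch2-/-. The overlap of precursor sums depends on the measure. Mean log2 CPM, which weights the 18 markers equally, was 8.65 to 9.02 in control libraries. It was 7.57 to 8.94 in libraries labelled Notch1-/-Notch2-/- (median 8.34) and 8.33 to 9.04 in Notch1-/- (median 8.55), both medians below the lowest control. In Rbpj-/- it was 8.49 to 9.02 and in Notch2-/- 8.69 to 9.14. In libraries labelled Notch1-/-Notch2-/-, the estimate was below 0 for 13 markers and above 0 for 5. Late sums did not overlap the controls there.

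Markers of other cell types were lower in the same groups as the myelin genes. Of all genes tested, 18.8% fell in libraries labelled Notch1-/-Notch2-/-, 7.25% in Rbpj-/-, 13.5% in Notch1-/- and 0.166% in Notch2-/-. Of 21 microglia and macrophage markers, 18 fell in libraries labelled Notch1-/-Notch2-/-, 17 in Rbpj-/-, 19 in Notch1-/- and 0 in Notch2-/-. Siglech fell by 4.20 and P2ry12 by 3.85 in libraries labelled Notch1-/-Notch2-/-. The microglia list summed to 463 to 1717 CPM in control libraries, 93.7 to 220.1 in libraries labelled Notch1-/-Notch2-/-, 196 to 310.0 in Rbpj-/-, 122 to 324 in Notch1-/- and 383 to 841 in Notch2-/-. Of 15 endothelial markers, 14 fell in libraries labelled Notch1-/-Notch2-/-, 10 in Rbpj-/-, 14 in Notch1-/- and 0 in Notch2-/-. The endothelial list summed to 134 to 376 CPM in control libraries, 43.9 to 102 in libraries labelled Notch1-/-Notch2-/-, 48.7 to 115 in Rbpj-/-, 38.3 to 101 in Notch1-/- and 95.4 to 241 in Notch2-/-. Of 20 astrocyte markers, 14 fell in libraries labelled Notch1-/-Notch2-/-, 9 in Rbpj-/-, 12 in Notch1-/- (where Sox9 rose) and 0 in Notch2-/-. Astrocyte markers summed to 2034 to 3392 CPM in control libraries, 958 to 1750 in libraries labelled Notch1-/-Notch2-/-, 1712 to 2129 in Rbpj-/-, 1353 to 2051 in Notch1-/- and 2628 to 3566 in Notch2-/-. No microglia, endothelial or astrocyte marker was at 0 in all libraries of a group. These lists fell in the same groups as the late myelin genes, and their part in the result was not tested.

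Of 14 mural and fibroblast markers, 3 fell in libraries labelled Notch1-/-Notch2-/- (Vtn, Rgs5 and Kcnj8), 2 in Rbpj-/- (Vtn and Rgs5), 5 in Notch1-/- (Vtn, Rgs5, Kcnj8, Notch3 and Abcc9) and 0 in Notch2-/-. These counts are 21.4%, 14.3%, 35.7% and 0% of the list, beside 18.8%, 7.25%, 13.5% and 0.166% of all genes. The mural and fibroblast markers summed to 230 to 1040 CPM in control libraries, 23.1 to 396 in libraries labelled Notch1-/-Notch2-/-, 18.9 to 1062 in Rbpj-/-, 18.7 to 1499 in Notch1-/- and 50.7 to 1163 in Notch2-/-. Of 16 neuronal markers, 5 fell (Camk2a, Nrgn, Stmn2 and Vsnl1 among them) and 1 rose (Nefm) in libraries labelled Notch1-/-Notch2-/-, and their sums were 198 to 249 CPM in control libraries against 105 to 203 there. Neuronal sums were 123 to 229 CPM in Rbpj-/- (1 fell), 146 to 276 in Notch1-/- (2 fell, Vsnl1 among them, and Nefm rose) and 209 to 271 in Notch2-/- (0 passed). Of 9 Schwann cell markers tested, 1 fell (Ncmap by 1.74) and 1 rose (Prx, by 0.69) in libraries labelled Notch1-/-Notch2-/-, and 0 passed in the other comparisons. Schwann cell sums were 675 to 847 CPM in control libraries, 575 to 923 in libraries labelled Notch1-/-Notch2-/-, 688 to 1333 in Rbpj-/-, 705 to 1079 in Notch1-/- and 685 to 912 in Notch2-/-. Of 5 choroid plexus markers tested, 3 fell in libraries labelled Notch1-/-Notch2-/- and 3 in Notch1-/- (Ttr, Clic6 and Sostdc1 in each), 1 in Rbpj-/- (Sostdc1) and 0 in Notch2-/-. The choroid list summed to 12.1 to 305 CPM in control libraries, 2.73 to 16.6 in Rbpj-/-, 2.44 to 7.70 in Notch1-/-, 5.39 to 20.8 in Notch2-/- and 0.927 to 3.20 in libraries labelled Notch1-/-Notch2-/-, where Otx2 was at 0 in all 5.

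**Figure D5:**
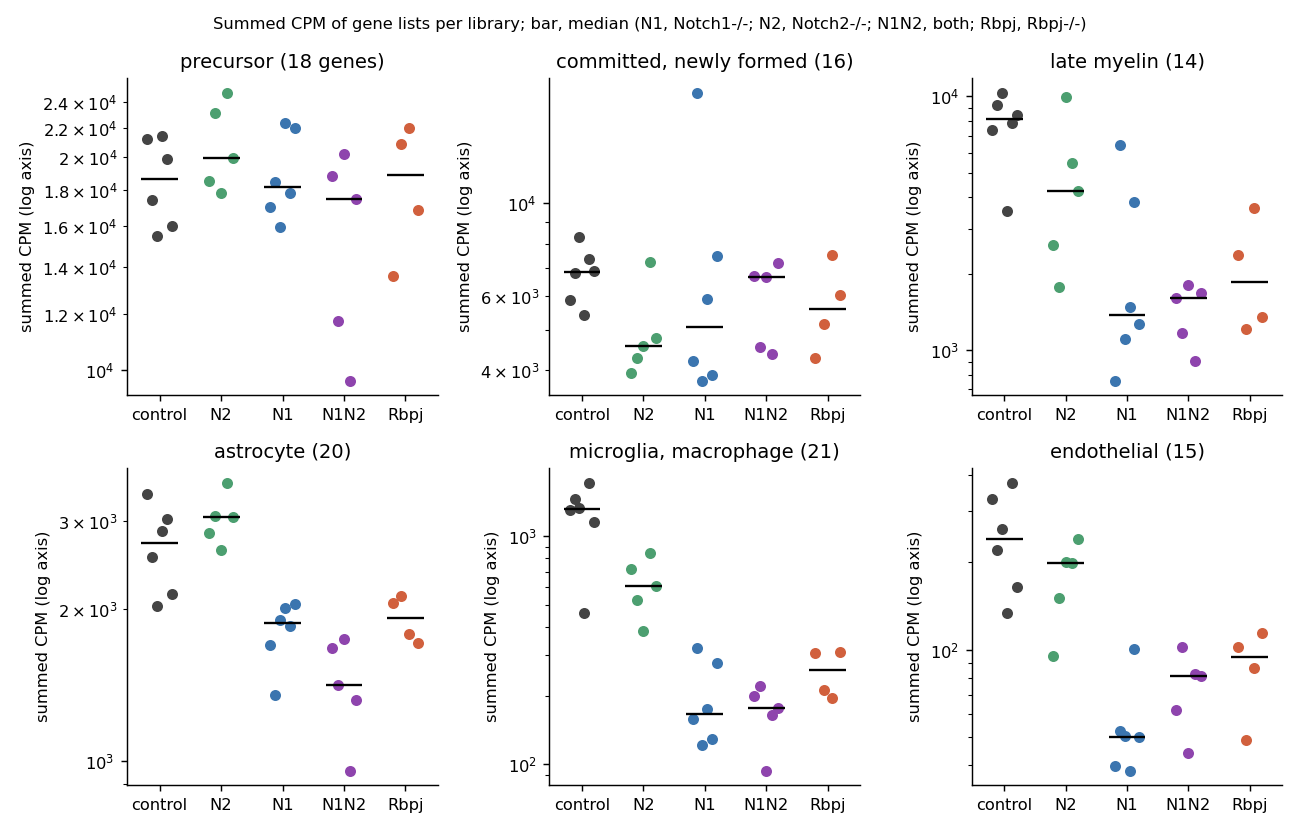
Summed CPM (log axis) of precursor (18 genes), committed (16), late myelin (14), astrocyte (20), microglia (21) and endothelial (15) lists in each library, by genotype. Late myelin sums reach 1809 CPM in Notch1-/-Notch2-/- and 3623 CPM in Rbpj-/-, against 3529 to 10320 CPM in control libraries, while the precursor sums of all groups overlap.

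Exons of 12 members overlap those of another gene in the GENCODE annotation. Among them are Cnp with Dnajc7, Ermn with Galnt5, Sirt2 with Nfkbib, Cryab with Hspb2, Bcas1 with its antisense genes and Trf with a predicted gene on the same strand. The kit marks strand, but how the counting used it is unknown here, and the counts of these members may hold or lack reads of their neighbours.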

How the data were processed

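The deposited table held read counts for 26 libraries, made by the authors, with Entrez identifiers and gene lengths. Per the labels' protocols, the kit was TruSeq Stranded RNA LT and the sequencer an Illumina NextSeq. Per the submitters' processing notes, the aligner was STAR and the build mm10. For the version of STAR, the counting tool, the annotation and the use of strand, nothing is given in the sources used here. Deposited counts were whole numbers, and their totals differed between libraries, as unnormalized counts do.

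Genotype and replicate number came from the labels. Symbols, positions and promoter windows came from RefSeq tables of GRCm38.p6, which matched 24374 of 24454 identifiers, and exon overlaps from the GENCODE annotation. Filtering with filterByExpr by genotype kept 15617 genes, and totals were scaled by TMM. Genotype was the sole term of a single fit over the 26 libraries, tested by quasi-likelihood in edgeR 4.0.16 (R 4.3.3), with Benjamini-Hochberg adjustment over all genes at 0.05. Each SE was computed from a fold change and its F value. The biological coefficient of variation common to all genes was 0.368. TMM-scaled totals entered the CPM, and a prior count of 2 was added for log2 CPM. Early genes were Enpp6, Bcas1 and Myrf, late genes Mog, Mal, Mag, Mobp, Mbp, Cldn11, Opalin, Ermn, Aspa, Hapln2, Klk6, Apod, Trf and Gjb1. The other 15 members were given no stage.

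The members, their roles and stages and all lists were chosen with earlier results of these data known. Full values are given for the early members and, within each role, for the most abundant member and the one with the smallest adjusted p in Notch1-/-Notch2-/- against control. Lists give up to 3 genes with the smallest adjusted p there. A few genes that this names are not reported here. Mal was given in full, and the libraries singled out, after their values were seen.

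Each alternative changed 1 choice. These were the size factors of DESeq2, no filter, at least 10 CPM in 4 libraries, the Wald test (DESeq2 1.42.0), voom with quality weights (limma 3.58.1), replicate number as a block, a fit of the compared libraries alone, a fit without the 3 libraries with both Xist and Ddx3y, and fits without each library. Simulated counts with known changes served as a test of the procedure.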

Additional observations from a re-analysis of the deposited data

Results flagged for a closer look

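In 44 of 175 groups of 4 to 6 values examined, 1 library lay far from the others of its genotype by Dixon's criterion. For normally distributed values, chance alone meets it in about 1 in 20 groups. The values were CPM and ratios without logs, so that rate need not hold here, and low values are flagged less readily. Members rise and fall together in a library, so these are not 44 separate events.

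In Notch1-/- replicate 2, 27 values lay far above the other Notch1-/- libraries. Among membrane and sheath genes these were Mog (236 CPM), Mbp (2850.3), Mag (690.2), Mobp (318), Cnp (3642), Cldn11 (1007), Ermn (115), Opalin (67.0), Tmem88b (315) and Tspan2 (951). Among enzymes they were Aspa (27.2), Ugt8a (1043), Car2 (84.3), Fa2h (233), Enpp2 (2776), Enpp6 (549.9) and Sirt2 (1924). The rest were Nfasc (2554), Hapln2 (4.46), Klk6 (8.59), Cryab (311), Ppp1r14a (2.60), Plekhh1 (74.3), Bcas1 (3954), Myrf (539), Nkx6-2 (6.62) and the early sum (5044).

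In replicate 3 of the libraries labelled Notch1-/-Notch2-/-, 9 genes lay far above the rest of the group, namely Mog (64.5 CPM), Mal (149), Aspa (8.68), Mobp (61.9), Ermn (24.0), Car2 (28.5), Plekhh1 (37.6), Tspan2 (294) and Cryab (87.9). In Rbpj-/- replicate 3, Mal (374 CPM), Aspa (18.9) and Fa2h (76.4) did. In Notch2-/- replicate 3, Qdpr did (303 CPM).

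Apod lay far above the rest in control replicate 6 (1788 CPM), in Notch1-/- replicate 5 (1554 CPM) and in replicate 5 of the libraries labelled Notch1-/-Notch2-/- (315 CPM). The ratio of late to early sums in Notch1-/- replicate 5 was 5.51, far above the other Notch1-/- libraries.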

How the results depend on the processing

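Under the alternatives other than leaving out a library, the number of members called against control was 22 to 28 in libraries labelled Notch1-/-Notch2-/- (26 as reported) and 14 to 28 in Rbpj-/- (19 as reported). Voom gave 31 in Notch1-/- (18 as reported), 11 in Notch2-/- (0 as reported), 16 for Notch1-/- against Notch2-/- (0 as reported) and 4 for the interaction (0 as reported). DESeq2 gave 4 for Notch1-/- against Notch2-/- and 2 for libraries labelled Notch1-/-Notch2-/- against Notch1-/- (0 as reported). The causes were not tested. Shares of all genes are not given beside the counts in this section. The counts alone do not tell a change in the members from a change in all genes.

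Each library of the compared groups was left out in turn. The count was then 22 to 28 in libraries labelled Notch1-/-Notch2-/-, 7 to 24 in Rbpj-/-, 12 to 30 in Notch1-/- and 0 to 1 in Notch2-/-. Libraries of the other groups share the fit, and their removal is not covered by these ranges. It was 0 to 12 for Notch1-/- against Notch2-/-, 0 to 3 for libraries labelled Notch1-/-Notch2-/- against Notch1-/- and 0 to 1 for the interaction. In Rbpj-/- the count was 11 without control replicate 2, 9 without Rbpj-/- replicate 1 and 7 without Rbpj-/- replicate 2 or replicate 4. Notch1-/- replicate 2 gave the 30, the 12 and the 1 of the interaction. Without Notch2-/- replicate 3 the count in Notch2-/- was 1. For Notch1-/- against Notch2-/- it was 3 without Notch2-/- replicate 2 and 1 without Notch1-/- replicate 5, and replicate 3 of the libraries labelled Notch1-/-Notch2-/- gave the 3 in the last comparison with Notch1-/-.

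The replicate number as a block gave 25 calls in libraries labelled Notch1-/-Notch2-/-, 14 in Rbpj-/-, 18 in Notch1-/- and 0 in Notch2-/-, with no share of all genes given for this fit. Over 47 same-numbered pairs of libraries of different genotype, deviations from the genotype mean correlated from -0.459 to 0.760 (median -0.0194), and 15 pairs were above 0.1. The median shows no general pairing by number. Pairs with different numbers were not compared, so whether some libraries were paired cannot be told.

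The late to early log2 difference in libraries labelled Notch1-/-Notch2-/- was -3.15 with mean log2 CPM in place of sums. Bcas1 changed sign in Rbpj-/- under voom (0.0767) and without the 3 libraries of mixed Xist and Ddx3y (0.00578), and in Notch1-/- under voom (-0.16), and passed in none of these. With single libraries left out, its estimate reached 0.10 in Rbpj-/- and -0.38 in Notch1-/-, the latter without Notch1-/- replicate 2. Of 75 results of single named members, leaving out 1 library of the compared groups lost 22 calls. The block lost 8, and no filter and the removal of the mixed libraries 2 each. Voom gained 4, and DESeq2's test, its size factors and the fit of only the compared libraries kept all 75 on the same side. These 75 were the edgeR calls against control and the early genes in each such comparison, so only early genes could gain a call. Other members that voom added enter the counts per comparison above. Klk6 and Hapln2 rest on few counts in some libraries, and Klk6 had 0 counts in 1 of them.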
